A study of Mus musculus with 24 samples.

Results

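Polycomb repressive complex 1 (PRC1) is described here through 9 of its subunits, Cbx2, Cbx6, Cbx7, Cbx8, Bmi1, Pcgf2, Ring1, Rnf2 and Phc1. They were taken by symbol from a gene expression table of 24043 symbols. All 9 are in the table, and all 9 passed the filter on low values that 12389 genes passed. The cells were C2C12, an established mouse myoblast line with no genetic change named in the labels, which divides in serum-rich medium and fuses into myotubes after serum is lowered. Cells in growth medium received DMEM with 10% fetal bovine serum and an antibiotic. Cells in differentiation medium received DMEM with 2% horse serum and an insulin, transferrin and selenium supplement, with medium changes over several days (the labels leave out the number of days). Each medium was combined with 21% oxygen (normoxia) or 2% oxygen (hypoxia), which gave 4 groups of 2 RNA-seq libraries, biological replicates A and B. The series has 24 samples in all, and its 8 H3K27me3 chromatin libraries and 8 input libraries were not analysed here. The labels do not say how far replicates A and B were separate cultures, so p-values measure the spread between these libraries.

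PRC1 is a chromatin complex that attaches ubiquitin to histone H2A and compacts nucleosomes at silenced developmental genes. Its catalytic core pairs a RING1 protein (Ring1 or Rnf2, the latter also called RING1B) with a PCGF protein, of which Bmi1 (PCGF4) and Pcgf2 (MEL-18) define the canonical forms. Canonical PRC1 adds a CBX chromodomain protein, which binds the H3K27me3 mark that PRC2 lays down, and a PHC protein, which polymerises and clusters the complex. Variant PRC1 carries Rybp or Yaf2 in place of CBX and PHC and mostly uses other PCGF proteins. Polycomb silencing is known in muscle for holding differentiation genes shut in myoblasts.

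Expression values are FPKM, fragment counts scaled to transcript length and to library size, so levels can be set beside each other between genes. Changes are differences of mean log2(FPKM + 1) with their SE, which understate the change of low genes, and adjusted p-values come from limma with Benjamini-Hochberg adjustment over 12389 genes, with 0.05 as the threshold. Libraries summed to between 480018 and 534167 FPKM. Total fragment numbers are unknown; relative depth, read from the lowest steps of FPKM, spanned 0.631 to 1 and was lowest in hypoxic differentiation replicate B. This library also stood apart from its replicate: 613 genes differed by more than 2-fold between them, against 56 to 71 in the other groups, and the median log2 level of 12 proliferation genes was 4.78 in B and 2.46 in A. For the 9 PRC1 subunits the ratio of B to A in that group lay between 0.813 (Cbx8) and 1.33 (Cbx2). The labelled states were checked on Myog, a myogenic transcription factor that rises at differentiation, which read 2576 and 2642 FPKM in normoxic differentiation medium and 4.49 and 2.14 FPKM in hypoxic differentiation medium. The 6 myotube markers were all called lower there than in normoxic differentiation medium and summed to 17.4 and 9.72 FPKM, against 7628 and 7646 FPKM. Those hypoxic sums were above the 3.43 and 3.80 FPKM of hypoxic growth medium, with 4 of the 6 called higher, but below the 32.9 and 25.2 FPKM of normoxic growth medium. The cells in hypoxic differentiation medium thus did not reach the marker levels of differentiated cells, and that comparison is named here by its medium. The 4 myoblast markers (Myod1, Myf5, Des and Cdh15) were all called lower under hypoxia in both media, with median log2 changes of -1.97 in growth medium and -3.15 in differentiation medium, and their sum went from 465 and 387 FPKM in normoxic growth medium to 107 and 114 FPKM in hypoxic growth medium. All 6 genes of a list of hypoxia-induced genes were higher in hypoxic growth medium than in normoxic growth medium. In differentiation medium 5 of the 6 were called higher in hypoxia, and Vegfa was not (log2 change 0.19, adjusted p = 0.301 by limma). On differentiation in normoxia 3 of the 6 were called higher, among them Vegfa (4.49-fold) and Egln3 (7.41-fold). Markers of endothelial cells summed to at most 0.51 FPKM in any library. The macrophage glycoprotein gene Cd68 read 25.8 and 42.8 FPKM in hypoxic differentiation medium, while Ptprc and Emr1, which define leukocytes and macrophages, were near 0. Of the adipocyte markers Plin1 and Cidec were at 0 in every library, Adipoq was above 0 only in hypoxic differentiation medium (0.126 and 0.133 FPKM), and Pparg lay between 1.46 and 5.37 FPKM. Of the osteoblast markers Bglap read 93.1 and 75.5 FPKM in normoxic differentiation medium with Ibsp and Sp7 near 0. Runx2, which drives bone formation, was highest in normoxic growth medium (15.7 and 16.8 FPKM) and lowest in hypoxic differentiation medium (5.77 and 5.85 FPKM). The part of these differences in the subunit values was not tested.

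In growth medium in normoxia the most abundant subunit was Cbx6, followed by Pcgf2, Cbx7 and Bmi1, whose libraries overlapped in level. Ring1, Rnf2 and Phc1 came next, at 12.3 to 16.8 FPKM with no clear order, and Cbx8 and Cbx2 were lowest, at 8.91 to 10.5 FPKM, and overlapped. In normoxic differentiation medium the order turned, with Rnf2, Ring1 and Bmi1 highest at 12.3 to 15.9 FPKM. In hypoxic differentiation medium Cbx6 was again the most abundant, above every library of the other 8 subunits. The 9 subunits differed widely in how much they varied over the 8 libraries. The highest library exceeded the lowest by 6.45-fold for Cbx6, 4.64-fold for Cbx7, 3.95-fold for Cbx8, 3.27-fold for Cbx2, 2.64-fold for Pcgf2 and 2.52-fold for Phc1. The remaining subunits stayed within 1.75-fold (Ring1), 1.72-fold (Bmi1) and 1.38-fold (Rnf2). Among these 9 genes the 4 CBX readers thus had the widest ranges and Bmi1 and the RING1 ligases the narrowest.

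**Figure D1:**
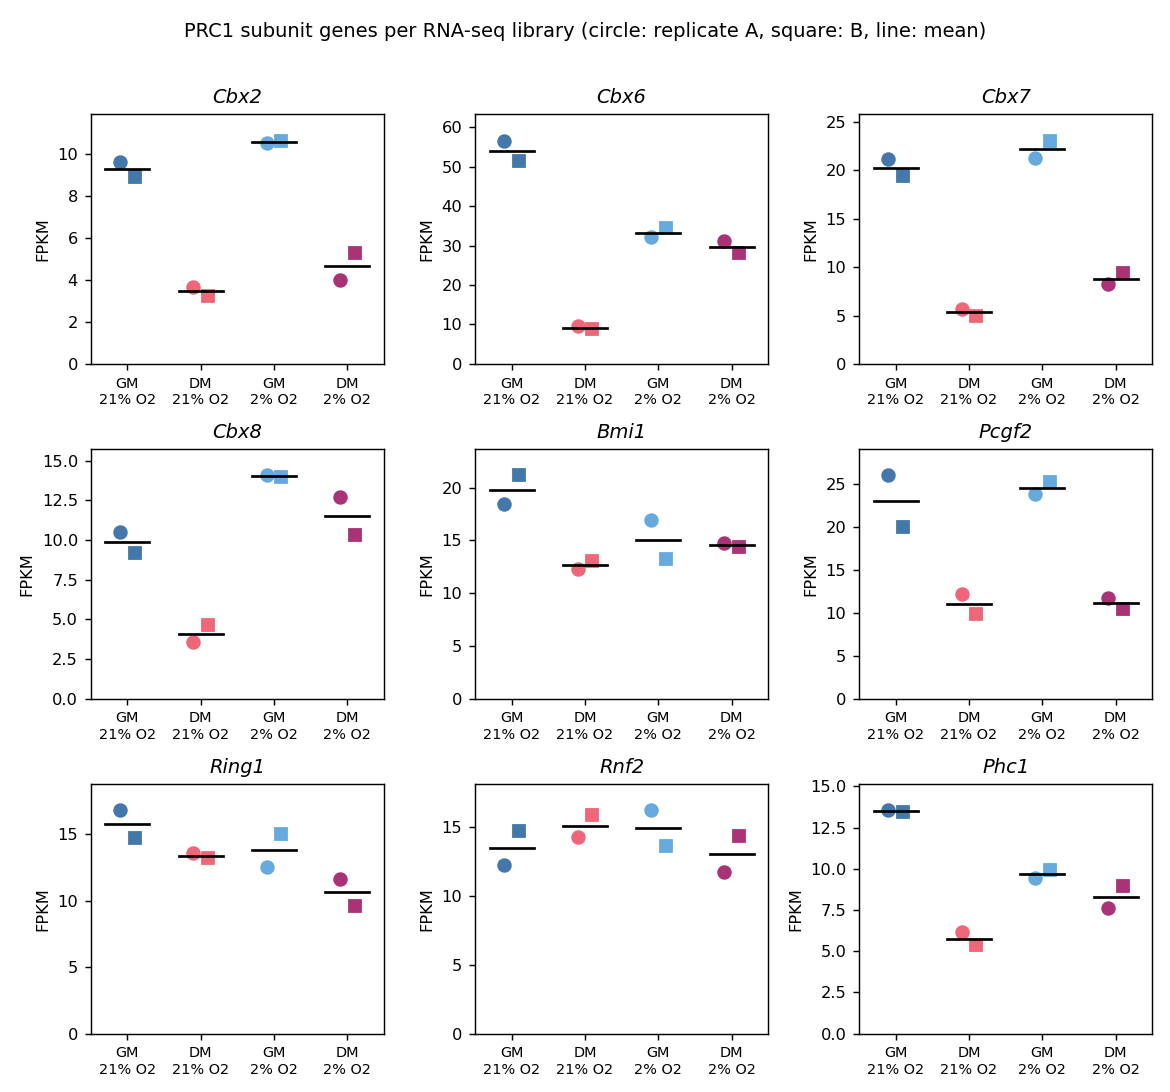
FPKM of each of the 9 PRC1 subunits in the 8 libraries (1 point per library, 1 panel per gene, groups along the horizontal axis). Cbx6 fell from 56.6 and 51.5 FPKM to 9.56 and 8.77 FPKM on differentiation in normoxia but read 31.1 and 28.1 FPKM in hypoxic differentiation medium, while Rnf2 stayed between 11.8 and 16.2 FPKM in all 8 libraries.

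Promoter sequences are shown for subunits that moved together, to set the start regions of the genes beside their responses. Cbx6 and Phc1 were lower in differentiation than in growth medium in normoxia and missed the threshold in hypoxia, and Cbx7 and Pcgf2 were lower at both oxygen levels. Cbx8 and Bmi1 had the same calls as Cbx6 and Phc1, and their windows are not shown. Sequences come from RefSeq, build GRCm38.p6, and run 250 bases before to 50 bases after the annotated start, read 5′ to 3′ on the gene's strand, which is the minus strand for all 4. RefSeq entries matched 8 of the 9 subunits, not Cbx2. The windows are chr15:79834284-79834583 (Cbx6), chr6:122340178-122340477 (Phc1), chr15:79932597-79932896 (Cbx7) and chr11:97699599-97699898 (Pcgf2). Capitals mark ACGTG or GCGTG on either strand, the core of the hypoxia response element bound by HIF proteins.
Cbx6: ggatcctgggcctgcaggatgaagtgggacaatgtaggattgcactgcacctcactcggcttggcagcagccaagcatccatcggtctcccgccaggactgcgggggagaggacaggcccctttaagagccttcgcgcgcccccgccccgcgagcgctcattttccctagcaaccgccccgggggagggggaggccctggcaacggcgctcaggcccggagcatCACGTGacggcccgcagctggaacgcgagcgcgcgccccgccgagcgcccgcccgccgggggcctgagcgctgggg
Phc1: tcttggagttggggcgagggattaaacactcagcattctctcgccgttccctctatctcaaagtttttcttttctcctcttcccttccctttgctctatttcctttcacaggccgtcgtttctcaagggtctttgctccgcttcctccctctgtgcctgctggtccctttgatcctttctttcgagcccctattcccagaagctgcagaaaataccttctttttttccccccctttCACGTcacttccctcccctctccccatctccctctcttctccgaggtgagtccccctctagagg
Cbx7: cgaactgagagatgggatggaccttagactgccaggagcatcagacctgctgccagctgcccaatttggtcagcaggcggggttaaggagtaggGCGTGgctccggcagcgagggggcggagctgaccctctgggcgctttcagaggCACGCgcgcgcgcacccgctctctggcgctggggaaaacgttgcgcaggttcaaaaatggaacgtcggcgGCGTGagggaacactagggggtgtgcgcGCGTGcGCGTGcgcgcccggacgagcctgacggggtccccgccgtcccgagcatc
Pcgf2: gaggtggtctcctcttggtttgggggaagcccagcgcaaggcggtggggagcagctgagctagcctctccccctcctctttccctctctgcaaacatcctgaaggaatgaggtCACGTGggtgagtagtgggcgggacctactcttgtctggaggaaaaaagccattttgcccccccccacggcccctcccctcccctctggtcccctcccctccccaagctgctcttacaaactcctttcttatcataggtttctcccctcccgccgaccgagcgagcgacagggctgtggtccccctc

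The Cbx6 and Pcgf2 windows each hold CACGTG, a palindrome that counts as a match on both strands and is also an E-box (CANNTG, the motif of MYOD and other helix-loop-helix factors). The Phc1 window holds 1 match and the Cbx7 window holds 5, all of them GCGTG. All 8 matched promoters hold ACGTG or GCGTG, against 43.8% of 32851 RefSeq mouse promoters of the same length. For ACGTG alone the share of all promoters is 19.6%, for GCGTG 32.4% and for CANNTG 72.3%, and 6 of the 8 subunit promoters hold CANNTG. Some of the windows are GC-rich with many CpG sites, with 31 in Cbx6, 33 in Cbx7, 37 in Ring1, 30 in Rnf2, 24 in Cbx8 and 23 in Bmi1. The count was 10 in Pcgf2 and 9 in Phc1, against a median of 7 over all promoters. ACGTG and GCGTG each contain a CpG, so the 43.8% of all promoters is not a background matched for CpG. The Phc1 window had 52.0% GC, against a median of 52.7% over all promoters. ACGTG or GCGTG is present in the subunits that the main fit called between oxygen levels (Cbx6, Cbx7, Cbx8 and Phc1). It is also present in Bmi1, called in the interaction only, and in those with neither call (Pcgf2, Ring1 and Rnf2). A match is a description of the letters, and the start site used in these cells was not measured.

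The first comparison asked what happened to PRC1 when myoblasts differentiated in normoxia. No subunit rose and 7 of 9 fell, with a median log2 change of -1.10. Over all 12389 genes tested, 41.0% were called lower and 25.5% higher, with a median of -0.20, so a fall was common in this comparison. Of all calls 38.4% were higher, against 53.2% under median-of-ratios scaling, which moved the median of all genes to 0.02. At an unadjusted p under 0.05 the subunit counts were also 0 higher and 7 lower. RNA was measured in bulk, and fewer cells of a type and less RNA per cell cannot be told apart here.

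Among the CBX proteins, which read H3K27me3, Cbx6 changed most. Its FPKM were 56.6 and 51.5 in normoxic growth medium and 9.56 and 8.77 in normoxic differentiation medium, a 5.90-fold lower mean. The log2 change was -2.44 ± 0.09 (SE, n = 2 libraries per group; adjusted p = 2.76e-06 by limma), and 1.84% of all tested genes lay lower. Cbx6 overlaps the gene Npcd in RefSeq and shares its annotated start, and whether counting used strand is not stated. Npcd moved the same way, from 13.6 and 9.24 FPKM to 1.56 and 1.60 FPKM, so the split of fragments between the overlapping pair is uncertain. Their summed level was 70.2 and 60.8 FPKM in growth medium and 11.1 and 10.4 FPKM in differentiation medium. In hypoxia Npcd read 7.81 and 8.36 FPKM in growth medium and 4.51 and 9.48 FPKM in differentiation medium. The hypoxic sums were 39.9 and 42.8 FPKM and then 35.6 and 37.6 FPKM, and the same uncertainty holds for the Cbx6 values there.

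Cbx7, a CBX protein known for holding stem and progenitor cells in an undifferentiated state, went from 21.1 and 19.4 FPKM to 5.70 and 4.97 FPKM. Both differentiated libraries were far below both growth libraries, a 3.80-fold lower mean (log2 change -1.75 ± 0.11, adjusted p = 2.14e-05 by limma). Cbx2, the CBX member known for compacting nucleosomes and for axial patterning, went from 9.63 and 8.91 FPKM to 3.66 and 3.26 FPKM, or 2.68-fold lower. Cbx8 went from 10.5 and 9.19 FPKM to 3.56 and 4.62 FPKM, or 2.41-fold lower. Their log2 changes were -1.20 ± 0.13 for Cbx2 (adjusted p = 0.000262) and -1.10 ± 0.15 for Cbx8 (adjusted p = 0.000622). In all 4 of these CBX genes, and in 8 of the 9 subunits, both differentiation libraries lay below both growth libraries, as they did for 52.9% of all genes tested.

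Both canonical PCGF genes fell. Pcgf2 went from 26.0 and 20.0 FPKM to 12.2 and 9.88 FPKM, 2.09-fold lower (log2 change -0.99 ± 0.15, adjusted p = 0.00123 by limma). Bmi1, known for repressing the Ink4-Arf locus and sustaining self-renewal, went from 18.5 and 21.2 FPKM to 12.3 and 13.1 FPKM. That is 1.56-fold lower, with a log2 change of -0.60 ± 0.13 and an adjusted p of 0.0057. The Bmi1 call was lost under median-of-ratios scaling (log2 change -0.35, adjusted p = 0.0569). Cdkn2a and Cdkn2b, the genes of the Ink4-Arf locus, were listed at 0 in all 8 libraries. Nothing about their response to Bmi1 can be read from such values, and the reason for them was not tested.

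The catalytic ligases did not pass the test. Ring1 read 16.8 and 14.7 FPKM in growth medium and 13.6 and 13.2 FPKM in differentiation medium (log2 change -0.22 ± 0.13, adjusted p = 0.181 by limma). Rnf2, the main H2A ubiquitin ligase of the complex, read 12.3 and 14.7 FPKM and then 14.3 and 15.9 FPKM, with overlapping groups (log2 change 0.15 ± 0.15, adjusted p = 0.384). Under median-of-ratios scaling Rnf2 was called higher (log2 change 0.40, adjusted p = 0.0297). The sum of both ligases was 29.1 and 29.5 FPKM in growth medium and 27.9 and 29.1 FPKM in differentiation medium, while the sum of Cbx2, Cbx6, Cbx7 and Cbx8 dropped from 97.9 and 89.1 FPKM to 22.5 and 21.6 FPKM. Per unit of ligase RNA the summed level of these 4 CBX genes therefore went from 3.37 and 3.02 to 0.807 and 0.744.

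Phc1, whose SAM domain links PRC1 complexes to each other, went from 13.5 and 13.4 FPKM to 6.15 and 5.37 FPKM. This was 2.34-fold lower, with a log2 change of -1.10 ± 0.11 and an adjusted p of 0.000174 by limma. Beside these falls, 9 of 12 proliferation genes were called lower in the same comparison, and the median log2 level of the list went from 4.87 and 4.86 to 2.82 and 2.87. Their part in the PRC1 values was not tested.

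**Figure D2:**
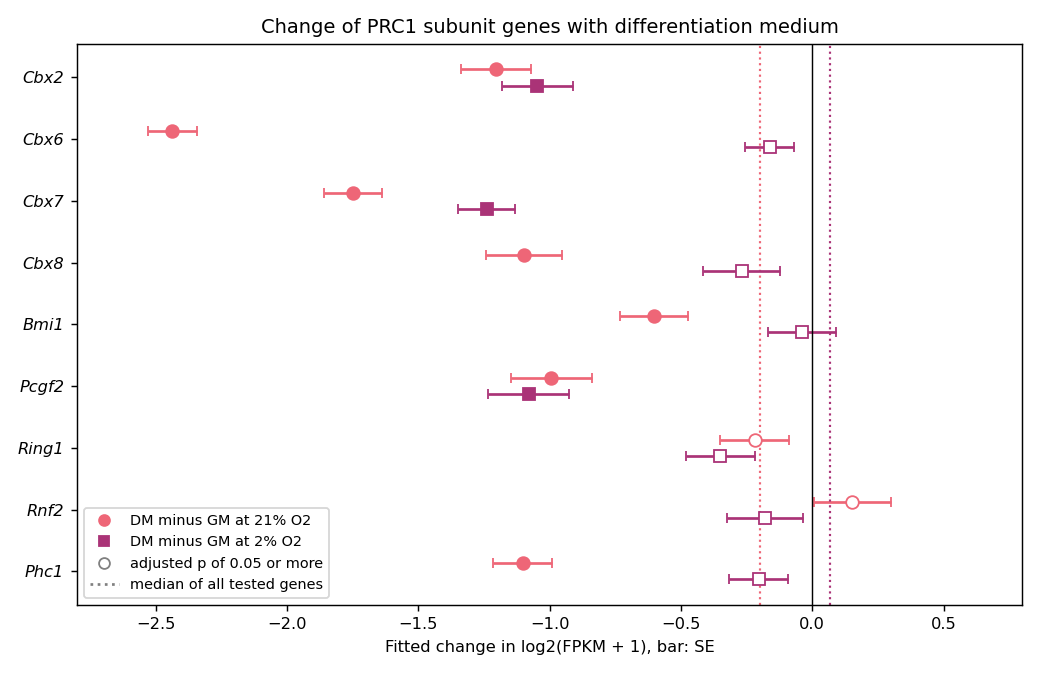
Log2 change between media (differentiation minus growth medium, mean log2(FPKM + 1)) of each PRC1 subunit in normoxia and in hypoxia, with bars for the SE from limma. Cbx6 moved by -2.44 in normoxia and -0.16 in hypoxia, while Pcgf2 moved by -0.99 and -1.08.

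The same change of medium was compared at 2% oxygen, where the summed myotube markers reached only 17.4 and 9.72 FPKM. In differentiation medium 3 of 9 subunits were lower than in growth medium, Cbx7, Cbx2 and Pcgf2, none was higher, and the median log2 change was -0.27. Over all genes tested, 17.6% were called lower and 23.3% higher, with a median of 0.07. At an unadjusted p under 0.05 limma gave 0 higher and 4 lower. These 3 genes were called lower under all 14 alternative settings of that comparison, among them the fit without hypoxic differentiation replicate B.

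Cbx7 read 21.2 and 23.1 FPKM in hypoxic growth medium and 8.25 and 9.39 FPKM in hypoxic differentiation medium, 2.51-fold lower (log2 change -1.24 ± 0.11, adjusted p = 0.000588 by limma). Cbx2 read 10.5 and 10.6 FPKM and then 3.99 and 5.29 FPKM, 2.28-fold lower (log2 change -1.05 ± 0.13, adjusted p = 0.00178). Pcgf2 read 23.9 and 25.3 FPKM and then 11.8 and 10.4 FPKM, 2.21-fold lower (log2 change -1.08 ± 0.15, adjusted p = 0.00248). In each of these genes both libraries from differentiation medium lay below both from growth medium.

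The other 6 subunits missed the threshold. Cbx6 read 32.1 and 34.4 FPKM and then 31.1 and 28.1 FPKM, a log2 change of -0.16 ± 0.09 (adjusted p = 0.211 by limma). Cbx8 read 14.1 and 13.9 FPKM and then 12.7 and 10.3 FPKM (log2 change -0.27 ± 0.15, adjusted p = 0.187). Phc1 read 9.46 and 9.90 FPKM and then 7.60 and 8.98 FPKM (log2 change -0.20 ± 0.11, adjusted p = 0.189). Bmi1 (log2 change -0.04, adjusted p = 0.843) and Rnf2 (-0.18, adjusted p = 0.366) overlapped between groups. Ring1 read 12.6 and 15.0 FPKM and then 11.6 and 9.60 FPKM (log2 change -0.35 ± 0.13, adjusted p = 0.0733). In Cbx6, Cbx8, Phc1 and Ring1 the groups did not overlap either, so 7 of 9 subunits had both differentiation-medium libraries below both growth libraries, against 30.3% of all genes tested.

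The next question was whether the response to differentiation medium differed between oxygen levels, although the myotube markers rose to high levels in normoxia only. It was tested as the interaction, which is the change in hypoxia minus the change in normoxia. It passed the threshold upward for 5 of 9 subunits, Cbx6, Phc1, Cbx8, Bmi1 and Cbx7, and downward for none (5 and 0 also at an unadjusted p under 0.05), with a median of 0.51. Without hypoxic differentiation replicate B the count was again 5, while it was 3 without normoxic differentiation replicate A or without replicate B and 2 without hypoxic growth replicate B. Over all genes tested, 35.4% were called higher and 18.7% lower, with a median of 0.27, so most genes called in this test also lay on that side. Of all calls 65.5% were higher, and this share was 46.9% under median-of-ratios scaling and 53.6% under upper-quartile scaling, where the median of all genes moved to -0.02 and 0.07.

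The interaction was largest among the subunits for Cbx6, at 2.27 ± 0.13 (adjusted p = 3.62e-05 by limma), and 97.5% of tested genes lay lower. For Phc1 it was 0.90 ± 0.16 (adjusted p = 0.00342). Both calls held under all 13 alternatives. The interaction was 0.83 ± 0.21 for Cbx8 (adjusted p = 0.0143), 0.56 ± 0.18 for Bmi1 (adjusted p = 0.0372) and 0.51 ± 0.15 for Cbx7 (adjusted p = 0.0299). All 3 of these calls were lost when libraries were rescaled, to 0.54, 0.25 and 0.21 under median-of-ratios scaling and to 0.62, 0.35 and 0.30 under upper-quartile scaling. Under the same scalings Rnf2 was called downward (-0.64 and -0.55, adjusted p = 0.0252 and 0.0461). With replicate letters as a block, the calls of Cbx7 and Bmi1 were also lost (adjusted p = 0.0534 and 0.0609). For Cbx2 (0.16 ± 0.19, adjusted p = 0.504) and Pcgf2 (-0.09 ± 0.22, adjusted p = 0.753) the difference between oxygen levels missed the threshold.

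Hypoxia in growth medium left Cbx8 higher and Cbx6 and Phc1 lower, which is 1 and 2 of 9 subunits, while 13.5% of all genes were called higher and 28.0% lower. The median log2 change was 0.10 for the subunits and -0.14 for all genes. The number called was 1 without either normoxic growth library or hypoxic growth replicate B. The share of all calls that were higher was 32.6%, against 45.4% under median-of-ratios and 49.3% under upper-quartile scaling.

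Cbx6 was 56.6 and 51.5 FPKM in normoxia and 32.1 and 34.4 FPKM in hypoxia, 1.63-fold lower (log2 change -0.68 ± 0.09, adjusted p = 0.00184 by limma), a call kept under all 14 alternatives. Phc1 was 13.5 and 13.4 FPKM in normoxia and 9.46 and 9.90 FPKM in hypoxia, 1.39-fold lower (log2 change -0.44 ± 0.11, adjusted p = 0.0197), a call kept under 9 of 14. Cbx8 was 10.5 and 9.19 FPKM in normoxia and 14.1 and 13.9 FPKM in hypoxia, 1.42-fold higher (log2 change 0.47 ± 0.15, adjusted p = 0.0409). The Cbx8 call was kept under 6 of 14 alternatives and is therefore the least stable of the 3. Bmi1 was lower without passing the threshold (log2 change -0.38 ± 0.13, adjusted p = 0.0553). Median log2 levels of the proliferation genes were 3.99 and 3.74 in hypoxic growth medium, below the normoxic 4.87 and 4.86, and their part in these values was not tested.

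In differentiation medium hypoxia left 4 of 9 subunits higher, Cbx6, Cbx8, Cbx7 and Phc1, and none lower, with a median log2 change of 0.33. At an unadjusted p under 0.05 limma gave 5 higher and 0 lower, and without hypoxic differentiation replicate B the counts were again 4 and 0. Over all genes 37.5% were called higher and 27.7% lower, with a median of 0.15. Of all calls 57.5% were higher, against 47.2% under median-of-ratios scaling, where Ring1 (-0.49, adjusted p = 0.0266) and Rnf2 (-0.38, adjusted p = 0.0372) were also called lower.

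Cbx6 was 9.56 and 8.77 FPKM in normoxia and 31.1 and 28.1 FPKM in hypoxia, 3.23-fold higher (log2 change 1.59 ± 0.09, adjusted p = 1.49e-05 by limma). Cbx8 was 3.56 and 4.62 FPKM in normoxia and 12.7 and 10.3 FPKM in hypoxia, 2.81-fold higher (log2 change 1.30 ± 0.15, adjusted p = 0.000287). Cbx7 was 1.65-fold higher, at 5.70 and 4.97 FPKM against 8.25 and 9.39 FPKM (log2 change 0.63 ± 0.11, adjusted p = 0.00217). These 3 readers were well separated between the oxygen levels. Phc1 was 1.44-fold higher (log2 change 0.46 ± 0.11, adjusted p = 0.0101), and lost its call without normoxic differentiation replicate B (adjusted p = 0.0781). Cbx2 at 0.33 ± 0.13 (adjusted p = 0.0644) missed the threshold and passed it without hypoxic differentiation replicate A (log2 change 0.50). Pcgf2 differed by 0.02 ± 0.15 (adjusted p = 0.936), at 12.2 and 9.88 FPKM in normoxia and 11.8 and 10.4 FPKM in hypoxia. Hypoxic differentiation replicate B, the library with high proliferation genes, was higher than replicate A for Cbx7 and Phc1 and lower for Cbx6 and Cbx8.

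The make-up of the CBX subunit pool was compared as each gene's share of the summed FPKM of Cbx2, Cbx6, Cbx7 and Cbx8, which does not depend on how libraries are scaled against each other. Cbx6 held the largest share in all 8 libraries. It made up 57.8% and 57.9% in normoxic growth medium and 42.5% and 40.6% in normoxic differentiation medium, while the sum dropped from 97.9 and 89.1 FPKM to 22.5 and 21.6 FPKM. In hypoxia the order was the other way, with 41.2% and 41.9% for Cbx6 in growth medium and 55.5% and 53.0% in differentiation medium, and sums of 77.9 and 82.1 FPKM and of 56.1 and 53.1 FPKM. Cbx7 went from 21.6% and 21.8% to 25.4% and 23.0% with the change of medium in normoxia, and from 27.3% and 28.1% to 14.7% and 17.7% with that in hypoxia. Cbx2 likewise held more in differentiation medium in normoxia (9.84% and 10.0% in growth medium, then 16.3% and 15.1%) and less in hypoxia (13.5% and 12.96%, then 7.12% and 9.96%). Cbx8 was lowest in normoxic growth medium, at 10.7% and 10.3%, and held between 15.8% and 22.6% in the other libraries. Thus the Cbx6 share was lower in differentiation medium than in growth medium in normoxia and higher in hypoxia. RefSeq places Cbx2 and Cbx8 as consecutive coding genes on chromosome 11, and both fell on differentiation in normoxia. In hypoxia the log2 change between media was -1.05 for Cbx2, which was called, and -0.27 for Cbx8, which was not. Under hypoxia in differentiation medium it was 0.33 for Cbx2, which was not called, and 1.30 for Cbx8, which was.

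**Figure D3:**
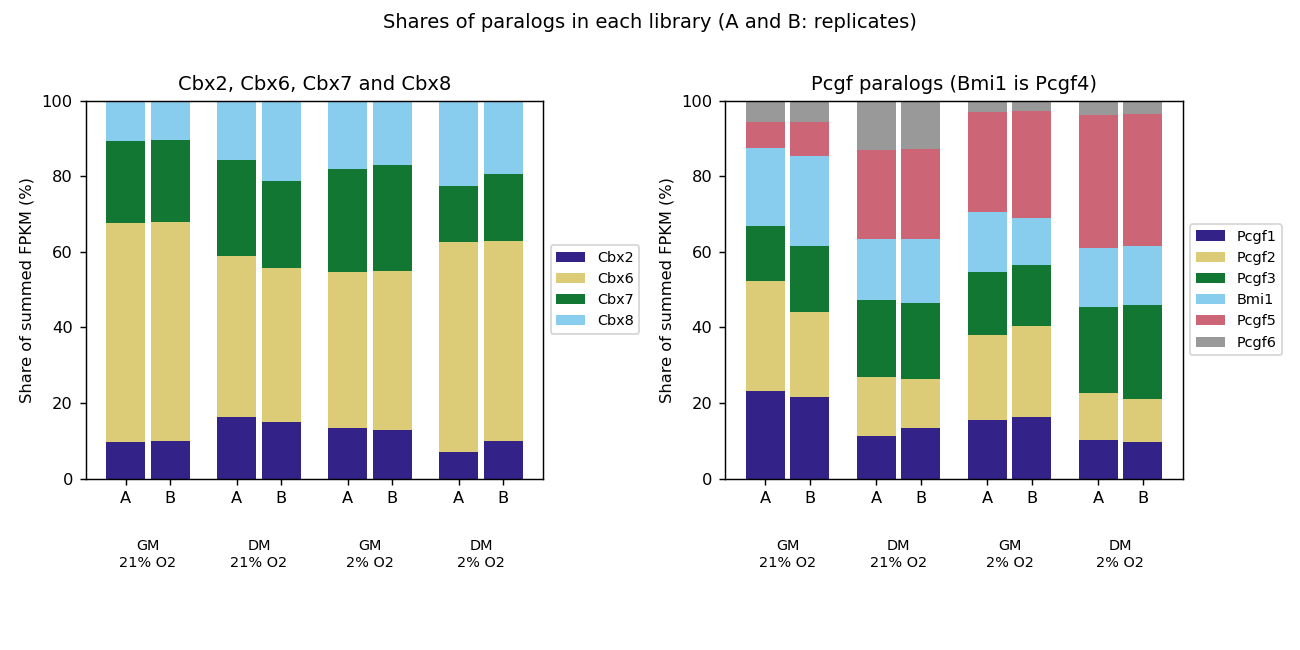
Share (percent of summed FPKM) of each gene among the 4 CBX subunits (left) and among 6 PCGF genes (right), 1 stacked bar per library. In differentiation medium Cbx6 takes 42.5% and 40.6% of the CBX sum in normoxia, against 55.5% and 53.0% in hypoxia, and Pcgf5 takes 7.06% and 8.90% of the PCGF sum in normoxic growth medium and, at its largest, 35.2% and 35.0% in hypoxic differentiation medium.

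The PCGF pool shifted as well. Bmi1 and Pcgf2, which define canonical PRC1, share the position with Pcgf1, Pcgf3, Pcgf5 and Pcgf6 of variant PRC1. Pcgf2 made up 29.1% and 22.6% of the 6-gene sum in normoxic growth medium and 22.4% and 24.0% in the hypoxic one, and in differentiation medium it made up 15.9% and 12.8% (normoxia) or 12.5% and 11.4% (hypoxia). Bmi1 made up 20.6% and 23.8% in normoxic growth medium and between 12.5% and 16.9% elsewhere. Pcgf5, a subunit of the variant complexes active on H2A, read 6.33 and 7.90 FPKM in normoxic growth medium against 28.4 and 29.6 FPKM in hypoxic growth medium (log2 change 1.89 ± 0.11, adjusted p = 7.43e-05 by limma). It was the most abundant PCGF gene in both hypoxic groups and in normoxic differentiation medium.

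Within the canonical pair, Pcgf2 was above Bmi1 in both hypoxic growth libraries (ratios of 1.41 and 1.91) and below it in both hypoxic differentiation libraries (0.801 and 0.727). In normoxia the ratios were 1.41 and 0.947 in growth medium and 0.991 and 0.757 in differentiation medium, which overlap. The ratio of Ring1 to Rnf2 lay between 0.667 and 1.37 over the 8 libraries with overlapping groups, so neither ligase was steadily the more abundant. Among the PHC genes, Phc2 was the most abundant (75.9 and 60.5 FPKM in normoxic growth medium), and Phc1 held 14.3% and 16.3% of the PHC sum there, 11.1% and 10.4% in normoxic differentiation medium, 18.1% and 18.4% in hypoxic growth medium and 16.2% and 16.0% in hypoxic differentiation medium.

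**Figure D4:**
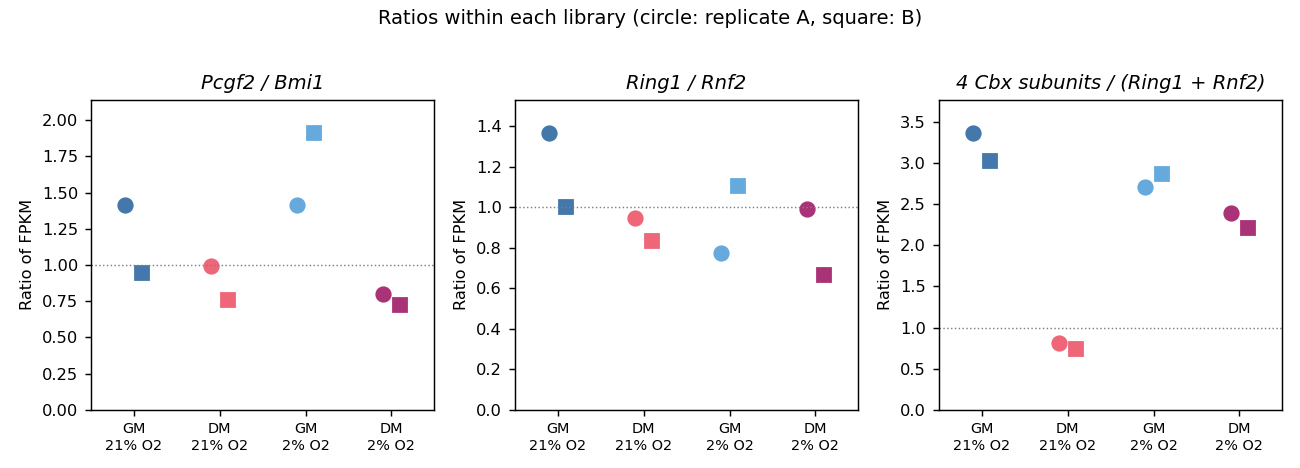
Ratio of FPKM in each library (linear axis from 0, 1 point per library, dotted line at 1) for Pcgf2 over Bmi1, Ring1 over Rnf2 and the sum of Cbx2, Cbx6, Cbx7 and Cbx8 over that of Ring1 and Rnf2. The last ratio is 0.807 and 0.744 in normoxic differentiation medium and between 2.22 and 3.37 in the other 6 libraries.

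The other PRC1 genes moved in both directions. Of 22 listed (other canonical and variant subunits), 21 were tested, and Scml2 was too low. On differentiation in normoxia 3 of 21 were higher and 7 lower, against 25.5% and 41.0% of all genes, with a median log2 change of -0.12. Differentiation medium in hypoxia left 4 higher and 4 lower, against 23.3% and 17.6%, but 5 were called in all without normoxic differentiation replicate A or B or with the replicate block, and 3 without hypoxic growth replicate A or B. Hypoxia in growth medium left 2 higher and 6 lower (13.5% and 28.0% of all genes) and hypoxia in differentiation medium 6 higher and 3 lower (37.5% and 27.7%). The interaction was called upward for 5 and downward for 3 (35.4% and 18.7%). Whether the list differs from the 9 subunits was not tested.

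The interaction calls among these genes, 5 upward and 3 downward of 21, stand beside 35.4% and 18.7% of all genes tested. Values after rescaling are not given for them. Pcgf6, the PCGF protein of the MGA and L3MBTL2 complex, rose on differentiation in normoxia from 5.01 and 5.01 FPKM to 9.97 and 9.94 FPKM (log2 change 0.87 ± 0.10, adjusted p = 0.000309 by limma). In hypoxia it was 3.14 and 3.06 FPKM and then 3.71 and 3.20 FPKM, and the interaction was -0.75 (adjusted p = 0.00448). Kdm2b, which brings the PCGF1 complex to CpG islands, fell in normoxia by 0.87 on the log2 scale with an interaction of 0.77 (adjusted p = 0.00276). Phc2 fell by 0.76 in normoxia with an interaction of 0.78 (adjusted p = 0.015). In growth medium Phc2 was lower under hypoxia, at 34.6 and 36.4 FPKM against 75.9 and 60.5 FPKM (log2 change -0.91, adjusted p = 0.00278 by limma). In differentiation medium its difference between oxygen levels missed the threshold (log2 change -0.13, adjusted p = 0.424 by limma). Pcgf1 fell in differentiation medium at both oxygen levels (by 1.0 on the log2 scale with an adjusted p of 0.000257 at 21% oxygen, by 0.81 with 0.00221 at 2% oxygen), as Pcgf2 and Cbx7 did. Dcaf7, a WD40 partner of variant PRC1, had an interaction of 1.10 (adjusted p = 0.000245). L3mbtl2 read 5.82 and 5.21 FPKM in hypoxic growth medium and 8.86 and 16.0 FPKM in hypoxic differentiation medium, and its 2 libraries there were far apart. Its log2 change was 0.99 (adjusted p = 0.017 by limma) and, in a fit added after seeing the data, 0.60 without hypoxic differentiation replicate B (adjusted p = 0.00648). In growth medium Bcorl1 rose by 0.94 under hypoxia, and in differentiation medium Auts2 fell by 0.94 under hypoxia. Pcgf3, Phc3, Rybp and Yaf2 were present at between 5.13 and 22.8 FPKM in all libraries. Pcgf3 was called higher in differentiation medium in hypoxia (log2 change 0.33, adjusted p = 0.0367 by limma). It was also called higher under hypoxia in differentiation medium (0.48, adjusted p = 0.00467). Yaf2 was called lower on differentiation in normoxia (-0.37, adjusted p = 0.015). Phc3 and Rybp missed the threshold in every comparison.

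**Figure D5:**
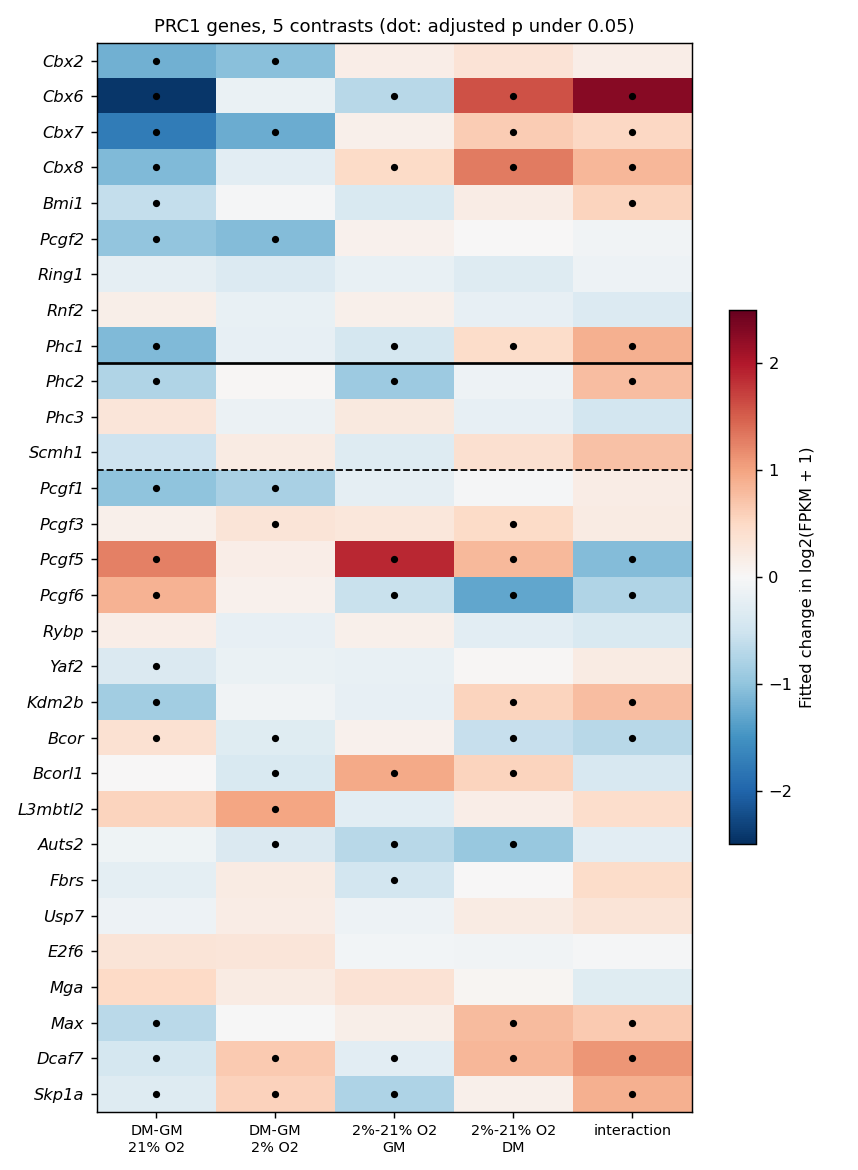
Fitted change in log2(FPKM + 1) (colour) of the 9 subunits, above the solid line, and 21 other PRC1 genes, below it, in the 5 comparisons along the horizontal axis, with a dot where the adjusted p is under 0.05. The first column is negative for 8 of the 9 subunits and positive for Pcgf5 (1.25) and Pcgf6 (0.87), and the last column is 2.27 for Cbx6 and -1.08 for Pcgf5.

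PRC2 writes the mark that the CBX proteins bind. Of 11 PRC2 genes tested, 1 rose and 3 fell on differentiation in normoxia (25.5% and 41.0% of all genes), and 1 was higher and 2 lower in differentiation medium in hypoxia (23.3% and 17.6%). Hypoxia left 1 higher and 3 lower in growth medium (13.5% and 28.0%) and 4 higher and 2 lower in differentiation medium (37.5% and 27.7%). The interaction was called for Phf1 (0.92 ± 0.23, adjusted p = 0.0132 by limma) and, without hypoxic differentiation replicate B, also for Ezh2 (0.60, adjusted p = 0.00512) and Jarid2 (0.70, adjusted p = 0.00813). Phf1, a Polycomb-like accessory protein, fell by 1.78 on the log2 scale in normoxia and by 0.86 in hypoxia. Ezh1, the methyltransferase of resting cells, fell by 1.31 and by 1.10. Ezh2, the methyltransferase of dividing cells, read 12.3 and 12.7 FPKM before and 7.07 and 7.08 FPKM after differentiation in normoxia (log2 change -0.74, adjusted p = 0.104 by limma, or 0.000153 without hypoxic differentiation replicate B), and 9.17 and 23.3 FPKM in hypoxic differentiation medium. That wide gap lies between the libraries that also differed in proliferation genes. The Ezh2 change under hypoxia in differentiation medium was 0.96 (adjusted p = 0.0491 by limma) and, in a fit added after seeing the data, 0.33 without hypoxic differentiation replicate B (adjusted p = 0.0161). In growth medium Aebp2 rose by 0.66 under hypoxia and Rbbp7 fell by 0.68. Eed, which binds H3K27me3, ranged from 9.0 to 19.7 FPKM and was called higher under hypoxia in differentiation medium (log2 change 0.72, adjusted p = 0.00543), and Suz12 ranged from 10.6 to 21.4 FPKM. Of 5 tested genes that remove or help remove ubiquitin from H2A, Asxl1 was lower in differentiation medium at both oxygen levels (by log2 changes of -0.77 and -0.74). Bap1 was higher there in hypoxia by 0.50, or 0.32 without hypoxic differentiation replicate B (adjusted p = 0.0201 and 0.0315).

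The subunits were also compared by the likeness of their profiles over the 8 libraries, as Pearson's r of log2 values, which is a description because the libraries share 4 groups. Cbx2 and Cbx7 were the most alike pair (r = 0.991), followed by Cbx2 with Pcgf2 (0.946), Cbx6 with Phc1 (0.946) and Cbx7 with Pcgf2 (0.942). Rnf2 had no subunit with a similar profile, with r between -0.42 (Cbx6) and 0.02 (Cbx2). Among 9411 candidate genes, those most like Cbx6 were Smarcc2, a subunit of the SWI/SNF remodeller, and Pcolce, a procollagen enhancer (r = 0.999 for each). Pcolce read 609 and 494 FPKM in normoxic growth medium and 311 and 349 FPKM in hypoxic growth medium. In differentiation medium it read 71.6 and 67.9 FPKM in normoxia and 306 and 256 FPKM in hypoxia, the same order of groups as for Cbx6.

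Phc1 was most like Sall2 (0.996), a zinc-finger transcription factor. Cbx7 was most like Zrsr1 (0.997) and Masp1 (0.992), and Zrsr1 was also the gene most like Cbx2 (0.992). Cbx8 was most like Pla2g15 (0.992) and Map1lc3b (0.989), genes of lysosomal lipid breakdown and of autophagy. Pcgf2 was most like Acbd4 (0.984) and Zbtb12 (0.982). The subunits with the narrowest ranges had less close matches, with Sh3bgrl (0.972) and Hnrnph1 (0.965) for Bmi1, Lysmd1 (0.968) and Ahdc1 (0.954) for Ring1, and Syap1 (0.974) and Zfp52 (0.960) for Rnf2.

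By position, RefSeq places Cbx6 and Cbx7 on chromosome 15 with Apobec3 as the coding gene between them, and the interaction was 2.27 for Cbx6 and 0.51 for Cbx7. Cbx7 overlaps Apobec3 and Cbx2 overlaps a long noncoding RNA gene, and with the use of strand in counting not stated these levels are uncertain as well. Apobec3, which encodes a cytidine deaminase, read 17.2 and 19.5 FPKM in normoxic growth medium, 3.08 and 3.26 FPKM in normoxic differentiation medium, 11.9 and 11.1 FPKM in hypoxic growth medium and 6.52 and 8.37 FPKM in hypoxic differentiation medium. Like Cbx7 it was lower in differentiation medium at both oxygen levels and higher there in hypoxia than in normoxia, and its part in the Cbx7 values was not tested.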

How the data were processed

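RNA-seq of 8 C2C12 libraries was analysed from 1 gene table. The authors deposited FPKM values per gene symbol and library. The submitters' processing notes name STAR 2.5.1b, Cufflinks 2.2.1 and build mm9. Annotation, use of strand and scaling between libraries are not given in the sources used here, and total depth is unknown. Columns carry medium, oxygen and letter, and each was assigned to the library with that title.

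Genes were kept if any group averaged 1 FPKM or more (12389 of 24043). Values were tested as log2(FPKM + 1) with limma 3.58.1 in R 4.3.3 (trended prior, all 8 libraries, 4 group means, 5 contrasts), with Benjamini-Hochberg adjustment over all kept genes. The code was tested on simulated data with known changes. Alternatives were another pseudocount, no filter, 2 scalings, replicate letters as a block, only the libraries compared, and each library left out.

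The subunits and gene lists were chosen with earlier results of these data known. Named genes were the 9 subunits, a fixed set of PRC1, PRC2 and Ink4-Arf genes, and from each Polycomb list at most the 2 with the largest called change per contrast. Each subunit's 2 most alike genes by Pearson's r were also named, among genes reaching a group mean of 5 FPKM. Genes beyond these, such as Npcd and Myog, were named for overlap or as labels' checks. Promoters came from RefSeq GRCm38.p6, and no coordinates were converted between builds. Some genes that these rules name are not reported here, and no list or share includes them.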

Additional observations from a re-analysis of the deposited data

Results flagged for a closer look

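In the main fit, the interaction term in limma (change in hypoxia minus change in normoxia, log2) passed the threshold for 5 PRC1 subunits. The 6 myotube markers summed to 17.4 and 9.72 FPKM in hypoxic differentiation medium against 7628 and 7646 FPKM in the normoxic one, so cells reached the marker levels of differentiated cells in normoxia and not in hypoxia. The differences were 2.27 for Cbx6 (adjusted p = 3.62e-05), 0.90 for Phc1 (0.00342), 0.83 for Cbx8 (0.0143), 0.56 for Bmi1 (0.0372) and 0.51 for Cbx7 (0.0299). The calls of Cbx6 and Phc1 held under all 13 alternatives. Those of Cbx8, Bmi1 and Cbx7 were lost under median-of-ratios and under upper-quartile scaling. Rescaled values are not given for the other genes named next. Among the other named PRC1 genes the interaction was -1.08 for Pcgf5 (adjusted p = 0.00124) and -0.75 for Pcgf6 (0.00448) by the same limma test. It was 0.77 for Kdm2b (adjusted p = 0.00276) and 0.78 for Phc2 (0.015). It was 1.10 for Dcaf7 (adjusted p = 0.000245) and, for the PRC2 accessory gene Phf1, 0.92 (adjusted p = 0.0132). Of all tested genes, 35.4% had a called difference upward and 18.7% downward.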

How the results depend on the processing

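Of 621 recomputed subunit changes, 562 kept direction and side of the threshold, 35 lost a call, 12 gained one and 12 changed sign; every sign change was in a value that missed the threshold. Under median-of-ratios scaling the log2 change became 0.034 for Ring1 on differentiation in normoxia, -0.16 for Pcgf2 under hypoxia in differentiation medium and -0.12 for the Cbx2 interaction. Under upper-quartile scaling the last 2 became -0.035 and -0.043. With a library left out, the log2 change ranged from -0.20 to 0.13 for Bmi1 in differentiation medium in hypoxia, from -0.079 to 0.28 for Pcgf2 under hypoxia in growth medium and from -0.12 to 0.15 for Pcgf2 under hypoxia in differentiation medium. The interaction ranged from -0.0084 to 0.33 for Cbx2 and from -0.27 to 0.094 for Pcgf2.

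The number of subunits with an interaction call was 5 upward, 2 upward (Cbx6 and Phc1) and 1 downward (Rnf2), or 3 in all, under each scaling, and 3 upward with the replicate block. With a library left out it ranged from 2 (without hypoxic growth replicate B) to 5, with 3 without either normoxic differentiation library. Hypoxia in growth medium called 3 subunits, and 1 to 4 with a library left out, with 1 without either normoxic growth library or hypoxic growth replicate B. Differentiation medium in hypoxia called 8 of the wider PRC1 list and 5073 of all genes, with only the libraries compared 3 and 3034, and 5 of the list with the replicate block. With a library left out these ranged from 3 to 10 and from 2501 to 6529, and for all genes under hypoxia in growth medium from 2997 to 6844, lowest without a hypoxic growth library. These shifts' cause was not tested.

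The A minus B differences correlated between groups at -0.17 to 0.04 over 12389 genes. The labels do not say whether equal letters mark a shared batch, and these correlations do not settle it. Beyond the interaction calls of Cbx7 and Bmi1 and the Cbx8 call under hypoxia in growth medium, which became 0.0661 in adjusted p, the replicate block changed no other subunit call. Total depth is unknown, so no counting error could be given.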
